A study of Homo sapiens with 19 samples.

Results

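The cytosolic ribosomal protein genes encode the protein parts of the ribosome, and 85 of them were followed through the first 72 h of brown adipocyte induction of a human embryonic stem cell line. Members were the genes whose current symbol starts with RPL or RPS followed by a digit, together with RPLP0, RPLP1, RPLP2 and RPSA, and they were 85 of the 20503 gene symbols matched to a probe. Left out were 18 pseudogenes, 10 RPS6K kinase genes, 2 Y-linked copies, 2 antisense or divergent noncoding genes, 1 readthrough locus and 1 gene for a protein that binds RPS19. The members comprised 77 standard ribosomal protein genes, 31 of the small 40S subunit and 46 of the large 60S subunit, and 8 paralogs that are close copies of a standard gene. Each member was read from its brightest probe, which was well above background on all 19 arrays for 85 of 85 genes.

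KhES-3, an established human embryonic stem cell line, was cultured in low-attachment dishes in a serum-free medium with the cytokines IGF-II, BMP4, VEGFA, KITLG, FLT3LG and IL-6, which starts the route towards brown adipocytes. Total RNA was taken at 19 times from 3 to 72 h and hybridised to 1-colour arrays, 1 array per time, and no array of cells before induction was analysed here. The cells are 1 line with no genetic change, all 19 arrays share the line and the medium, and the labels place the stem cells on irradiated mouse embryonic fibroblasts before induction whereas the study's methods describe culture without feeder cells. With 1 array per time there are no replicates, so the error of every slope is the scatter of the arrays around a line in hours.

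A ribosome joins a small subunit, which reads the mRNA, to a large subunit, which forms the peptide bond. Ribosomal protein mRNAs belong to the 5′ TOP class, whose first base is a C followed by a run of pyrimidines, and whose translation is switched by the kinase complex mTORC1 through LARP1. Several proteins have a second gene with restricted use: RPL3L is known from heart and skeletal muscle, and RPL10L and RPL39L from testis.

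The first bases of genes whose signals are described below show which of them have such a run at the annotated start. The windows run from 10 bases before the annotated start to its first 20 bases, 5′ to 3′, from RefSeq on GRCh38.p14. Capitals mark an unbroken pyrimidine run that begins with a C at the start and holds at least 4 further pyrimidines. A line without capitals has no such run at the annotated start. Transcription starts were not measured, so such a line does not show that the mRNA lacks a TOP start.
RPL22 (chr1:6199576-6199605, minus strand): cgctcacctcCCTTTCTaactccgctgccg
RPL22L1 (chr3:170870176-170870205, minus strand): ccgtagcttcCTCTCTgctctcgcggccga
RPL26 (chr17:8383174-8383203, minus strand): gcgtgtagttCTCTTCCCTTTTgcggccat
RPL26L1, first start (chr5:172958719-172958748, plus strand): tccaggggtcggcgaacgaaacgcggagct
RPL26L1, second start (chr5:172958870-172958899, plus strand): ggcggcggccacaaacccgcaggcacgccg
RPS27 (chr1:153990752-153990781, plus strand): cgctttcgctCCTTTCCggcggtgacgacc
RPS27L (chr15:63157458-63157487, minus strand): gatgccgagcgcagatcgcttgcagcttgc
RPS26 (chr12:56041908-56041937, plus strand): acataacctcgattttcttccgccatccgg
RPL27A (chr11:8682782-8682811, plus strand): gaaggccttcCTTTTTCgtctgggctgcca

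Of the 68 members with an annotated start in the reference, 47 (69.1%) began with such a run at a listed start, against 988 of 15843 protein-coding genes (6.24%). Among standard genes the run was present in 46 of 62, and among paralogs in 1 of 6, RPL22L1. The string CCGGAAG, the core that ETS family factors bind, was found on either strand of the 300 bases around the start in 24 of 68 members (35.3%) and in 16.5% of all genes. The string ATGGCGG, part of the YY1 motif, was found in 14 of 68 members (20.6%) and in 9.15% of all genes. These are matches of letters in a window and no measurement of binding. The other 17 members had no start in the reference used here.

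Levels are log2 of the array signal minus the 75th percentile of that array, so a level of 0 is the 75th percentile and a step of 1 is a doubling. Raw 75th percentiles ran from 525.5 to 800.3, and 49.6% to 64.7% of probes were well above background. The arrays lay on 3 slides, with 3 to 12 h on the first (6 arrays), 14 to 42 h on the second (8 arrays) and 48 to 72 h on the third (5 arrays), so slide and time overlap and cannot be fully told apart. The 66 and 72 h arrays had the lowest 75th percentiles, 525.5 and 535.2, and their spike-in controls stood highest against that percentile, at 5.06 and 5.05 log2 units above it. All 5 pluripotency markers POU5F1, NANOG, SOX2, LIN28A and DNMT3B were well above background on all arrays, and their summed level was 9.81 to 9.83 at 3 to 6 h and 9.29 to 9.40 at 60 to 72 h. Of 6 genes listed as fibroblast markers, COL1A1, COL1A2 and THY1 were above background on all arrays. DCN was so on 9 arrays, and COL3A1 and LUM on 1 array each. The summed level of the 6 was 5.88 to 5.98 at 3 to 6 h and 5.43 to 6.05 at 60 to 72 h. THY1 was the brightest of them, with a mean of 5.38 at 3 to 6 h. Whether these signals came from fibroblasts was not tested. In these bulk cultures fewer cells of a type and less RNA per cell cannot be told apart.

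The ribosomal protein genes changed little over the 72 h as a straight line in time. With a threshold of 0.05 on the adjusted p, 2 of 85 members rose, 9 fell and 74 did not pass. The calls made up 2.35% and 10.6% of the members, beside 27.4% rising and 24.7% falling over all 32113 tested probes, a difference that was not tested. The mean of the 60, 66 and 72 h arrays minus that of the 3, 4 and 6 h arrays had a median of 0.04 log2 units over the members, with quartiles of -0.07 and 0.13, against 0.07 with quartiles of -0.41 and 0.56 over all tested probes. For 77 of 85 members this change was under 0.3 log2 units in size, which is 1.23-fold. The whole range over 19 arrays had a median of 0.48 for the members and 1.20 for all tested probes.

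Few genes of either subunit passed, and a difference between the subunits was not tested. Among the 31 standard 40S genes 1 rose and 1 fell, with a median change of 0.05. Among the 46 standard 60S genes 1 rose and 4 fell, with a median change of 0.05. Among the 8 paralogs 0 rose and 4 fell (RPL22L1, RPL26L1, RPL7L1 and RPL36AL), with a median change of -0.21, and at an unadjusted p under 0.05 limma called 0 of them rising as well. Over all tested probes 27.4% rose and 24.7% fell at the adjusted threshold. Whether the paralogs or either subunit differ from these shares was not tested.

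**Figure D1:**
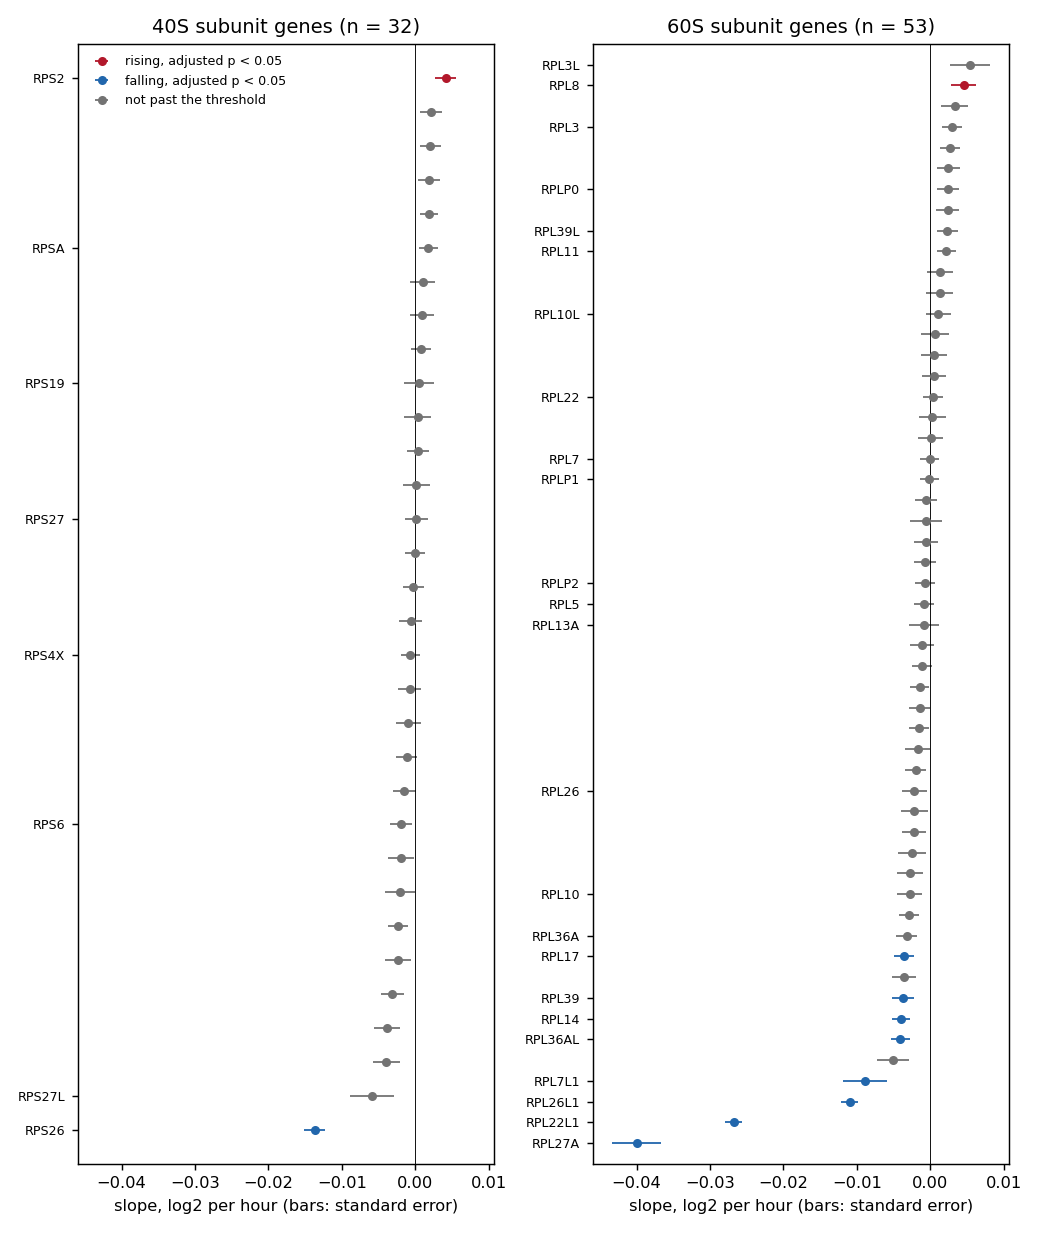
Slope of the log2 signal on hours for each of the 85 members (x axis, log2 units per hour, bars are standard errors), ordered within the 40S genes on the left and the 60S genes on the right, with names printed for some of the genes, among them all that rose or fell. Most points lie close to 0, while RPS26, RPL27A, RPL22L1 and RPL26L1 lie farthest below it and RPS2 and RPL8 are the rising members.

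The direction of the group as a whole depended on the scaling. With each array scaled to its median in place of its 75th percentile, 0 members rose and 47 fell, beside 13.5% and 36% of all tested probes, and the median change was -0.29. With spike-in scaling 0 rose and 56 fell, beside 4.62% and 34.8% of all probes, and the median change was -0.54. All tested probes shifted with them, from a median of 0.07 to -0.27 and -0.52, since these scalings subtract 1 value per array from every probe. At an unadjusted p under 0.05 no member rose with median or spike-in scaling either.

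Beneath the flat line, the members moved together in a shared wave. Relative to each gene's own 19-array mean, the members' median was 0.06 at 3 h, reached 0.17 at 10 h, went down to -0.18 by 28 h and -0.19 by 42 h, and came back to 0.15 by 66 h. At 10 and 12 h 82 of 85 members were above their own mean, and at 24 and 42 h 81 of 85 were below it.

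The wave was also described array by array. In 64 of 85 members (75.3%) every array of 3 to 12 h lay above every array of 36 to 54 h, against 21.3% of all tested probes. In 74 of 85 (87.1%) every array of 60 to 72 h lay above every array of 42 to 54 h, against 17.3%. Both orders held in 56 members (65.9%), against 4.74% of all probes. These groups of times were chosen after the values were seen, so these shares describe the wave and are no separate support for it. Over 3 to 54 h alone 1 member rose (RPL39L) and 52 fell, beside 25.6% and 23.2% of all tested probes, and without the 66 and 72 h arrays 1 rose and 28 fell, beside 25.1% and 23.2%.

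A similar course was present in very bright probes of other genes. A mean level at or above the members' lower quartile of 7.79 was reached by 65 probes of other genes. The set is not free of related genes. It held FAU and also EEF1A1, EEF1G, NPM1 and FBL, which belong to the lists of translation and ribosome assembly genes below. The 65 probes had a median of 0.05 at 3 h, a peak of 0.18 at 10 h, a low of -0.15 at 42 h and a second high of 0.11 at 66 h. Among them 33 (50.8%) met the first of the orders above and 31 (47.7%) the second, and 36 (55.4%) fell over 3 to 54 h. A cubic curve in hours fitted better than a constant at an adjusted p under 0.05 for 69 of 85 members (81.2%), for 55 of the 65 bright probes (84.6%) and for 75.9% of all tested probes, so this count does not set the members apart. How far the members differ from these probes was not tested. The arrays with high members were in part those with a low 75th percentile: it was 648.4 on the 10 h array, 633.4 on the 32 h array and 525.5 on the 66 h array, against 800.3 on the 24 h array. Other arrays went the other way. The percentile was 678.4 and 679.0 at 48 and 54 h, where the members' medians were -0.10 and -0.11. It was 741.2 and 754.5 at 3 and 4 h, where they were 0.06 and 0.05. Whether the level of a probe or the scaling has a part in the wave was not tested.

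On the scaled values, single arrays moved the whole group. Between 28 and 32 h 79 of 85 members went up, by a median of 0.21, and between 32 and 36 h 4 went up while the median step was -0.17. Between 54 and 60 h 78 went up, by a median of 0.16, and between 60 and 66 h 72 went up, by 0.10. Before scaling, the members' median log2 signal was 17.76, 17.76 and 17.81 at 28, 32 and 36 h. It was 17.70, 17.73 and 17.60 at 54, 60 and 66 h. The log2 75th percentile was 9.58, 9.31 and 9.57, and then 9.41, 9.27 and 9.04, on these arrays. The step up at 32 h thus came with a lower 75th percentile and a level unscaled median. At 66 h the unscaled median went down. The change of slide between 12 and 14 h came with a median step of -0.13, and that between 42 and 48 h with one of 0.09. With spike-in scaling the return at 66 and 72 h was absent: the members' medians there were -0.63 and -0.66, below all other arrays. The earlier part of the wave was not kept either. On that scale the median was 0.10 at 10 h, 0.25 at 28 h, the highest of all arrays, and -0.40 at 32 h.

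RPL22L1, the paralog of RPL22, changed most steadily. Its level was 7.10, 7.06 and 7.17 at 3, 4 and 6 h, had dropped to 6.62 by 28 h and 6.06 by 42 h, and ended at 5.79, 5.46 and 5.34 on the 60, 66 and 72 h arrays. All late arrays were far below all early ones, a mean change of -1.58 or 2.99-fold lower. The slope was -0.0268 log2 units per hour (SE 0.00120, adjusted p = 2.20e-11). A fit that includes a term for the slide gave -0.0255 (adjusted p = 0.000857). Within the slides it was -0.00454 on the first, -0.0271 on the second (adjusted p = 0.0169) and -0.0261 on the third (adjusted p = 0.110). The gene lies at chr3:170864875-170870195.

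RPL26L1, the paralog of RPL26, fell as well. It was 4.76, 4.74 and 4.88 on the 3 earliest arrays, 4.32 at 28 h and 4.22, 4.09 and 4.05 on the 3 latest. The change of -0.67 was a 1.59-fold drop, with a slope of -0.0110 (SE 0.00116, adjusted p = 3.29e-07). The slide term left an adjusted p of 0.0423. Its slope was 0.00118 on the first slide, -0.00932 on the second and -0.0133 on the third.

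RPS26, a 40S protein near the mRNA exit channel, was the only standard 40S gene that fell. Its level was 8.70, 8.71 and 8.75 at 3 to 6 h, with a peak of 8.84 at 10 h, and was 8.18 at 42 h and 7.99, 8.14 and 7.79 on the last 3 arrays. Early and late arrays did not overlap, and the change of -0.74 was 1.67-fold, with a slope of -0.0137 (SE 0.00138, adjusted p = 1.77e-07). The slide term changed it to -0.0133 (adjusted p = 0.0291), and within the slides it was 0.00742, -0.0179 and -0.00796. Its 3 probes, with mean levels of 8.40, 6.50 and -0.23, fell by 0.74, 0.78 and 1.11 log2 units. Thus the fall of RPS26 did not rest on 1 probe, and it was present at 66 h, where most members were high.

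RPL27A, a 60S protein, had the steepest slope of the 85 genes, but its only probe was dim. The mean level of that probe was -1.39, whereas 79 of the 85 members had a mean above 6. How well the probe reads the main RPL27A mRNA was not examined. The probe was at -0.80, -0.94 and -0.36 at 3, 4 and 6 h and peaked at -0.14 at 8 h. On the last 3 arrays it was at -2.78, -2.92 and -3.29. The change of -2.30 was a 4.92-fold drop, with a slope of -0.0400 (SE 0.00339, adjusted p = 2.36e-08). The slide term left an adjusted p of 0.0423. Within the slides the slope was 0.0319, -0.0307 and -0.0470, the last at an adjusted p of 0.0474. No second probe was present to compare it with.

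The other 5 falling members moved less. RPL7L1, the paralog of RPL7, was 2.83, 2.63 and 2.98 at 3 to 6 h, dropped to 1.88 at 24 h and stayed between 1.99 and 2.38 from 36 h on, with a slope of -0.00895 (adjusted p = 0.0173). RPL36AL, RPL14, RPL39 and RPL17 fell by between 0.15 and 0.16 log2 units, at adjusted p of 0.0120, 0.0118, 0.0496 and 0.0374. The calls of RPL39 and RPL17 were fragile. RPL39 kept its call on leaving out the array of 14, 20, 66 or 72 h and lost it without any other single array and in the deposited table. RPL17 lost its call without the array of 3, 6, 8, 10, 12, 42, 48, 54 or 66 h. These 5 genes did not pass once the slide was a term (adjusted p from 0.453 for RPL36AL to 0.997 for RPL17). In that fit 4 of 85 members fell and 0 rose, beside 4.01% and 4.88% of all tested probes, and at an unadjusted p under 0.05 limma called 4 falling and 2 rising. The other 3 probes of RPL17, with changes of 0.04, 0.02 and -0.15, did not pass.

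RPS2 and RPL8, a 40S and a 60S protein, were the rising members. RPS2 was 9.44, 9.49 and 9.57 at 3 to 6 h, 9.47 at 42 h and 9.70, 9.90 and 9.98 at 60 to 72 h, a change of 0.36 with a slope of 0.00417 (SE 0.00143, adjusted p = 0.0202). RPL8 was 8.40, 8.42 and 8.45 at 3 to 6 h, 8.26 at 42 h and 8.68, 8.80 and 8.83 at 60 to 72 h, a change of 0.35 with a slope of 0.00459 (SE 0.00172, adjusted p = 0.0310). Both gains lay in the last 3 arrays. Over 3 to 54 h alone neither passed (adjusted p = 0.936 and 0.845), and both slopes turned to below 0 with median or spike-in scaling. Without the 66 h array, and without the 72 h array, 0 members rose. Of the 4 other RPS2 probes 2 rose, by 0.34 and 0.31, and the rest, with changes of 0.13 and 0.06, did not pass. On the mean of all detected probes RPL8 was called rising and RPS2 was not.

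The paralogs differed in how they moved beside their standard genes. For each of the 8 pairs the difference of log2 signals on the same array, which no single factor per array changes, was regressed on hours and tested by a two-sided permutation test over the 19 arrays, with p adjusted over the 8 pairs. Neighbouring time points resemble each other, which this test does not take into account. The level of a difference is not read, since it compares separate probes.

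RPL22L1 minus RPL22 changed by -1.72 from 3 to 6 h to 60 to 72 h (adjusted permutation p = 8e-05, the smallest that 100000 permutations and 8 pairs can give). Within the slides its slope was -0.0132, -0.0214 and -0.0347. RPL26L1 minus RPL26 changed by -0.59 (adjusted permutation p = 0.0002). The RPL26 probe used had a low 60 h array, with 8.27, 7.97 and 8.53 at 54, 60 and 66 h. The 2 other RPL26 probes had no such dip, and changed by 0.10 and 0.13, against -0.09 for the probe used. RPL7L1 minus RPL7 changed by -0.66 (adjusted permutation p = 0.0041). Slopes below 0 on every slide were found in these 3 pairs and also for RPL10L, RPL36AL and RPL3L, 6 of the 8 pairs, among them RPL10L and RPL3L, whose slope over all times was above 0. In these pairs the standard gene itself was not called, with slopes of 0.000331 for RPL22, -0.00214 for RPL26 and -8.5e-05 for RPL7.

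RPL22 needs care, since its probes differed. The brightest changed by 0.14 (adjusted p = 0.856), while the next changed by -0.22 (slope -0.00516, adjusted p = 0.00104). Both changes are small beside the -1.58 of RPL22L1.

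RPS27L, a p53 target and paralog of RPS27, dipped and came back. It was 5.66, 5.60 and 5.80 on the 3 earliest arrays, lay between 4.89 and 5.07 on the arrays of 32 to 60 h, and was back at 5.62 and 5.64 on the last pair. The line over all times did not pass (slope -0.00588, adjusted p = 0.103), the cubic curve did (adjusted p = 1.07e-05), and so did the fall over 3 to 54 h (adjusted p = 3.54e-05). Its difference from RPS27 changed by -0.38 (adjusted permutation p = 0.0202), with slopes of -0.0207, -0.00678 and 0.0196 on the slides.

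The other 4 pairs changed by 0.25 log2 units or less in size. RPL39L was 2.79, 2.67 and 2.93 at 3 to 6 h, 3.10 at 48 h and 2.99, 2.82 and 2.88 at 60 to 72 h, and its difference from RPL39 changed by 0.25 (adjusted permutation p = 0.0188) with slopes above 0 on the first 2 slides and below 0 on the third. RPL10L minus RPL10 changed by 0.19 (adjusted permutation p = 0.00117), with slopes of -0.00941, -0.000623 and -0.00457 within the slides. The RPL10L probe had a mean level of 6.11 here, although the gene is known from testis. Whether this probe also reads RPL10 mRNA was not tested, so the pair may not compare separate mRNAs. RPL36AL minus RPL36A changed by -0.07 (adjusted permutation p = 0.345), with slopes of -0.0167, -0.00749 and -0.00305. RPL3L minus RPL3 changed by 0.18 (adjusted permutation p = 0.496), with slopes of -0.0211, -0.00641 and -0.00749. RPL3L, the muscle paralog, had a dim probe, with levels from -3.17 at 10 h to -2.01 at 24 h and a change of 0.42 (slope 0.00541, adjusted p = 0.103).

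The proteins of the stalk and the better known single members stayed near their start. RPLP0, RPLP1 and RPLP2, which form the stalk that binds elongation factors, changed by 0.22, 0.09 and 0.09 log2 units, at adjusted p of 0.190, 0.935 and 0.689. RPS6, the substrate of the S6 kinases, ranged from 8.26 to 8.76 with a median of 8.63, and changed by -0.05 (adjusted p = 0.305). RPL5 and RPL11, which bind the 5S rRNA and can bind MDM2, changed by -0.01 and 0.24 (adjusted p = 0.632 and 0.158). RPS19, which is mutated in some patients with Diamond-Blackfan anaemia, ranged from 8.09 to 8.74 and changed by 0.13 (adjusted p = 0.852). RPSA, RPS4X and RPL13A changed by 0.22, 0.02 and 0.05, and did not pass either. FAU, a ribosomal protein made as a fusion with a ubiquitin-like protein, changed by -0.06 and did not pass.

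To see which members departed from the shared wave, the members' own median was also used as the scale, a choice made after the data were seen. Then 8 rose (RPL11, RPL12, RPL3, RPL7A, RPL8, RPL9, RPLP0 and RPS2) and 12 fell, beside 26.8% and 20.8% of all tested probes. Of the 9 falling members 8 remained. A slide term on this scale left 2 that fell, RPL22L1 and RPS26, and 0 that rose (1 at an unadjusted p under 0.05 in limma), beside 2.44% and 2.22% of all probes.

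Of the 85 members, 45 had more than 1 probe, up to 9 for RPL21. Their probes mostly agreed in size: in 35 of 45 the changes of a member's probes lay within 0.3 log2 units of each other, with a median span of 0.17. Of the 89 probes not used above, 7 rose and 15 fell, beside 27.4% and 24.7% of all tested probes. In 1 member, RPL28, probes were called in opposite directions.

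The widest disagreement was between transcripts of the same gene. In 5 members 7 probes carried the RefSeq number of a transcript other than that of the brightest probe. Of these 3 rose and 1 fell, beside 27.4% and 24.7% of all tested probes. The genes RPS24, RPL28 and RPS29 are named here after their values were seen. The array files hold no probe sequences, so which exons these probes read was not examined.

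The RPS24 probe for NM_001142285 had a median of -2.92 over 3 to 54 h, with single high arrays of -1.80 at 10 h and -1.50 at 54 h, and was -0.58, -1.26 and -0.89 on the last 3 arrays. All 3 late arrays were above all earlier ones, and the change from the early mean was 2.25, or 4.74-fold (slope 0.0338, adjusted p = 5.22e-05). The brightest RPS24 probe, for NM_001026, changed by -0.11 (adjusted p = 0.0718). The RPS29 probe for NM_001030001 lay between 1.50 and 2.04 up to 54 h and was 2.67, 2.80 and 2.84 at 60 to 72 h, a change of 0.86 (slope 0.0120, adjusted p = 0.00324). The 3 RPS29 probes for NM_001032 changed by 0.04, 0.04 and -0.02.

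The RPL28 probe for NM_001136137 lay between -0.58 and 0.30 up to 54 h and was 1.23, 0.76 and 0.65 at 60 to 72 h, a change of 0.96 (slope 0.0145, adjusted p = 0.00604). Another RPL28 probe, for NM_001136134, fell by 0.39 (adjusted p = 0.0134), and the brightest, for NM_000991, changed by 0.11 (adjusted p = 0.805). In the 3 rising probes every array of 60 to 72 h was above every earlier array, an order met by 5.85% of all tested probes and by 9 of the 85 members' brightest probes (10.6%). With median scaling the RPS24 probe passed (adjusted p = 0.000433), and the RPS29 and RPL28 probes did not (adjusted p = 0.101 and 0.0902). Given a slide term none of the 3 passed (adjusted p = 0.0988, 0.122 and 0.283).

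Most of the genes that build ribosomes fell. Of 40 genes for ribosome assembly and RNA polymerase I, 1 rose and 30 fell, with a median change of -0.71, against 0.04 for the ribosomal protein genes and 0.07 for all tested probes, a difference between lists that was not tested. Over all tested probes 27.4% rose and 24.7% fell. NOP58 and NOP56, core proteins of the box C/D particles that guide rRNA methylation, fell by 1.38 and 1.37 log2 units (adjusted p = 1.16e-08 and 4.67e-08). UBTF, which activates RNA polymerase I, fell by 1.41 (adjusted p = 7.01e-06), and TAF1D, of the polymerase I selectivity factor, rose by 0.66 (adjusted p = 0.0135). Given a slide term 5 fell, NOP58, NOP56, NCL, TSR1 and EBNA1BP2, beside 4.01% of all probes, whereas UBTF (adjusted p = 0.0567) and TAF1D (adjusted p = 0.468) did not pass. With median scaling 35 fell, beside 36% of all probes, and TAF1D did not pass (adjusted p = 0.386).

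Of 18 other mRNAs with a TOP start or a role in translation, 3 rose and 6 fell, with a median change of -0.10. All tested probes had 27.4% rising and 24.7% falling, and no difference from them was tested. EEF2, EEF1A1 and EIF3F, which carry out elongation or belong to initiation factor eIF3, rose by 0.26, 0.33 and 0.18 (adjusted p = 0.00989, 0.0127 and 0.0143), none of which passed with median scaling. NAP1L1, a histone chaperone, EEF1B2, an exchange factor of elongation, and HNRNPA1, a splicing factor, fell by 0.73, 0.39 and 0.33 (adjusted p = 1.32e-07, 0.000106 and 8.43e-05). Given a slide term NAP1L1 alone of the 18 passed (adjusted p = 0.0427), and EEF1B2 (adjusted p = 0.189) and HNRNPA1 (adjusted p = 0.180) did not. With median scaling 12 of the 18 fell, beside 36% of all probes.

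Of 17 genes of mTORC1 and of the control of TOP translation, 1 rose and 9 fell, beside 27.4% and 24.7% of all tested probes, with a median change of -0.52. RHEB, the GTPase that activates mTORC1, fell by 1.53 (slope -0.0245, adjusted p = 1.53e-10). EIF4EBP1, which restrains cap-dependent translation, and SESN2, which inhibits mTORC1, fell by 0.86 and 0.93 (adjusted p = 7.72e-07 and 0.000783). TSC1, which restrains RHEB, rose by 0.70 (adjusted p = 3.04e-05). LARP1, which binds TOP mRNAs, fell by 0.52 (adjusted p = 0.000101). Given a slide term 2 of the 17 fell, RHEB (adjusted p = 0.00236) and EIF4EBP1 (adjusted p = 0.0119), while TSC1, LARP1 and SESN2 did not pass (adjusted p = 0.384, 0.146 and 0.477). With median scaling 1 rose and 11 fell, beside 13.5% and 36% of all probes.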

How the data were processed

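Total RNA of KhES-3 cells was labelled with Cy3 and hybridised to Agilent 1-colour arrays, 1 per time point. The authors deposited scanner output of Agilent Feature Extraction 10.10.1.1, whose processed signal is a background-subtracted intensity, and a table of scaled intensities without stated scaling. Each column of that table was the array's signal times 1 factor, from 0.905 to 1.38, which brings the 75th percentile to within 1.18% of that of the 8 h array.

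Control and outlier spots (232 to 814 per array) were left out and spots of a probe averaged. The log2 signal minus each array's 75th percentile was used for 50683 probes, of which 28174 matched a RefSeq symbol through their accession. On 5 or more arrays 32113 probes were well above background, and these were fitted with limma 3.58.1 (R 4.3.3), a slope on hours with Benjamini-Hochberg adjustment over all of them. Summaries used Python 3.11.15 and numpy 2.4.6. No spot was saturated, and the brightest member reached 69.8% of the saturation value. In a test on simulated data 75 of 100 slopes of 0.02 and 33 of 100 slopes of 0.01 per hour were recovered, with 7 false calls. No other probe of the 32113 was given a slope, whereas 27.4% rose and 24.7% fell in the data. The adjusted threshold was therefore stricter in the simulation. It used the scatter of all tested probes, so it does not give the recovery for the members.

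Named genes were the paralog pairs, the stalk proteins, RPSA, RPS6, RPL5, RPL11, RPS19, RPS4X, RPL13A, the 5 steepest members in each direction at an adjusted p under 0.05 and the 3 steepest of each other list; further genes were named to account for small counts or after their values were seen. Members, lists and tests were chosen with earlier results of these data known. Slope errors cover scatter between arrays only. Alternatives were other scalings, filters, time scales, slide terms and left-out arrays; normexp (offset 50) was run on median pixel signals. The number of arrays limits the precision.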

Additional observations from a re-analysis of the deposited data

How the results depend on the processing

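The 19 time points have 1 array each, so slide, culture and time are measured together, and a slope of 0.01 per hour was recovered in only 33 of 100 simulated probes. No paired analysis was possible because no time was measured more than once. Of 85 members, 2 rose and 9 fell as reported. Rising and falling members numbered 0 and 47 with array median scaling, 0 and 56 with spike-in scaling (7 of 10 levels used), 11 and 12 with normexp and quantile normalization, 1 and 7 without the background filter, 1 and 19 on log2 hours, 1 and 22 by Spearman correlation, 1 and 52 over 3 to 54 h, 42 and 27 by the cubic curve with direction from the late minus early change, 0 and 4 with the slide as a block, and 0 and 0, 0 and 1, and 0 and 1 within slides 1, 2 and 3. Chosen after seeing the data were scaling to the members' median (8 and 12), the same with the slide as a block (0 and 2), and leaving out both the 66 and 72 h arrays (1 and 28). Leaving out 1 array gave 0 to 3 rising and 7 to 14 falling: rising was 1 without 60 h, 0 without 66 h and 0 without 72 h, and falling was 14 without 66 h and 14 without 72 h. The deposited table (2 and 8), the filter on all 19 arrays (2 and 10) and the mean of all detected probes (2 and 12) stayed within 1.5 times. The median late minus early change, 0.04, was -0.29 with array median and -0.54 with spike-in scaling, and leaving out 1 array of either end left it within the scatter between arrays. The cause of these shifts was not tested.

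Among the 30 named members, 20 values changed sign while past the threshold as reported or under the alternative. With array median scaling the slopes were -0.0044 for RPL22, -0.000146 for RPL8 and -0.000566 for RPS2; with spike-in scaling -0.00286 for RPL8, -0.00328 for RPS2, -0.00694 for RPS19 and -0.0073 for RPS27. Over 3 to 54 h they were -0.000545 for RPL8, -0.00636 for RPS19 and -0.00482 for RPS27. On the first slide alone they were 0.00118 for RPL26L1, 0.0319 for RPL27A, 0.00501 for RPL36AL, 0.000249 for RPL7L1 and 0.00742 for RPS26; on the second -0.000431 for RPS2; on slide 3 0.00638 for RPL36AL and 0.0153 for RPL39. For RPL39 the slope was 0.0016 with the slide as a block and 0.000241 with the members' median and the slide as a block. Of the other values 945 kept their call, 61 lost it and 54 gained one.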
